A study of Mus musculus with 2 samples.

Results

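Orphan CpG-dense runs are short stretches of closely spaced CpGs that lie away from annotated gene starts. They were taken here as autosomal runs of at least 20 listed cytosines with no gap over 50 bp between neighbours, more than 2 kb from every GENCODE M21 transcription start on GRCm38. The rule, which used positions and no methylation value, gave 1439 orphan runs of 16190 autosomal runs. Of these, 908 were intragenic, overlapping an annotated gene body, and 531 were intergenic. The other 14751 runs lay within 2 kb of a start and were used for comparison. The data were percent methylation from reduced representation bisulfite sequencing (RRBS) of female Xmas mouse embryonic stem cells (mESCs) of the C57/Bl6 strain. In these cells GFP and mCherry, each driven by the Hprt promoter, sit on different X chromosomes, so cells with both X chromosomes (XX) and cells that kept only 1 (XO) could be sorted by FACS. Both populations came from the same modified culture, with 1 library each (7 passages by the labels, while the study's methods give another number), so there was no replicate error and no test between karyotypes was possible. A difference between XX and XO could not be told apart from a difference between these libraries. Methylation gives no expression levels, so the cell type was not checked by markers.

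Most CpGs in mammalian DNA are methylated, and the dense, unmethylated stretches called CpG islands are the main exception. Many islands cover promoters, but others, called orphan islands, lie inside or between genes, where some act as promoters not yet annotated or as enhancers and some take up methylation when cells differentiate. Female mESCs with a pair of active X chromosomes are known to carry less DNA methylation than mESCs with a single X, and transposable elements, many of them rich in CpGs when young, are a class of sequence that cells normally keep methylated.

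The central 200 bases of 6 runs are printed to show what such sequences look like, on the forward strand of GRCm38 and with every CpG in capitals. The Zfp11 run (chr5:129657540-129657739) held the largest intragenic fall in XX, and the run near Gm37404 (chr3:62158846-62159045) the largest intergenic fall. The run near Gm7201 (chr13:40808691-40808890) had the highest level over both libraries. The Srcin1 run (chr11:97534942-97535141) and the run near Gm27458 (chr1:178368937-178369136) were the largest rises in XX within and between genes. The Shroom3 run (chr5:92942077-92942276) was the longest.
Zfp11: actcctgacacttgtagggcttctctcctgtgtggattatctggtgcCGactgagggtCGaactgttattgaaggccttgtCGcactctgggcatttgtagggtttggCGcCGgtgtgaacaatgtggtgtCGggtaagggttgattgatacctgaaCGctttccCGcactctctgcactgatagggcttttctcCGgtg
Gm37404: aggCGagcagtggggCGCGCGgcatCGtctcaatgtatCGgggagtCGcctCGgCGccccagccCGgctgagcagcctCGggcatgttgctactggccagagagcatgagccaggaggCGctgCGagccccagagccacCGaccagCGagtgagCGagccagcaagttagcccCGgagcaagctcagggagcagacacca
Gm7201: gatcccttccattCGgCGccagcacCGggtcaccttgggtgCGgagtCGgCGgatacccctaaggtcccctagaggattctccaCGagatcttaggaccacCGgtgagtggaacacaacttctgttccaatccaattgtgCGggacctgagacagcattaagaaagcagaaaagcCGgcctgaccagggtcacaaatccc
Srcin1: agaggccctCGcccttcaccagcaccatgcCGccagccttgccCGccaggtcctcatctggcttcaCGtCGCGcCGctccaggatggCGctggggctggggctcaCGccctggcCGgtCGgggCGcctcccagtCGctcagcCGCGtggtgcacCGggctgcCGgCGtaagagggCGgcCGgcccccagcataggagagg
Gm27458: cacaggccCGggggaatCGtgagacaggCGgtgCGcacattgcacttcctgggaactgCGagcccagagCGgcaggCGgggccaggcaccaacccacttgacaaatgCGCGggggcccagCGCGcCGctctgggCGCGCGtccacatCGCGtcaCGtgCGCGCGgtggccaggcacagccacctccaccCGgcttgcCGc
Shroom3: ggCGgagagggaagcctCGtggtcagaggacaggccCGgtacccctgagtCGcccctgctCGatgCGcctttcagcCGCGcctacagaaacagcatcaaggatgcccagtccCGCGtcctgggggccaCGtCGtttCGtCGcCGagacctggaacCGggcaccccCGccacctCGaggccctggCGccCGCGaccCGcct
These windows held 9 CpGs in Zfp11, 17 near Gm37404, 10 near Gm7201, 20 in Srcin1, 23 near Gm27458 and 22 in Shroom3. The Zfp11 and Gm7201 windows, the most methylated of the set, had the fewest CpGs and a GC content of 53% and 56.5%. GC content was 68% to 74% in the other windows.

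Orphan runs were mostly hypomethylated in both karyotypes, and slightly more so in XX cells. Each run's level was the mean percent methylation of its listed cytosines, with both strands listed separately. The median run had 7.34% methylation in XX (lower to upper quartile 3.62% to 14.0%) and 9.48% in XO (4.63% to 19.5%). Runs within 2 kb of a start were lower in both libraries, with medians of 4.62% in XX and 5.54% in XO. By contrast, autosomal cytosines in no run averaged 27.6% in XX and 41.6% in XO. The XX level was below the XO level in 1023 orphan runs (71.1%), and the median difference between XX and XO was -2.43 percentage points. Intragenic runs had medians of 8.22% in XX and 10.4% in XO, with a median difference of -2.68 points. Intergenic runs had lower medians, 6.14% and 8.17%, with a median difference of -2.11 points. On all 19 of 19 autosomes the median difference was below 0.

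**Figure D1:**
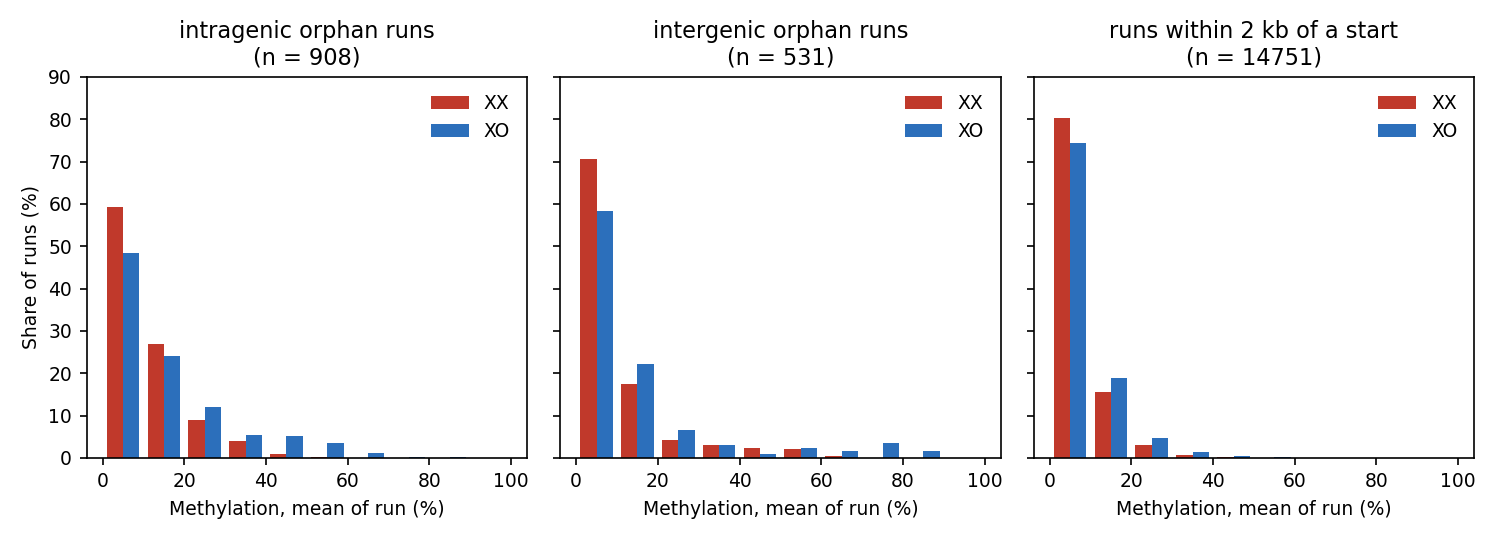
Share of runs (%) in each 10-point bin of methylation (mean of run, %) for intragenic orphan runs, intergenic orphan runs and runs within 2 kb of a start, with XX in red and XO in blue (1 library each). Most runs of every set sit below 10%, and the XO bars of orphan runs reach further right than those of near-start runs, with a separate group above 70% between genes.

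Large differences were found in few runs. XX was at least 20 points below XO in 121 orphan runs (8.41%), against 1.32% of all autosomal runs and 92 near-start runs (0.624%). A rise of at least 20 points was seen in 1 orphan run (0.0695%), against 0.105% of all autosomal runs. Both libraries were below 10% in 691 orphan runs (48.0%) and in 69.1% of near-start runs. At the other end, 93 orphan runs (6.46%) had at least 50% methylation in XO, 14 had it in XX and 13 had it in both. Of the 14751 near-start runs, 26 reached 50% in XO.

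A run near Gm37404 on chromosome 3 had the largest fall. It lies 35618 bp from the nearest annotated start, and the nearest start of a protein-coding gene, Arhgef26, is 179278 bp away. Its 35 listed cytosines averaged 14.1% in XX and 68.0% in XO, a difference of -53.9 points. All 35 of them were lower in XX, ranging from 0% to 31.4% there and from 25.9% to 100% in XO. The fall was of a similar size on both strands, at -52.9 points on the forward and -54.9 on the reverse strand. It held no soft-masked (repeat) base, and its central 40 bases occurred once in the genome. Listed cytosines within 2 kb of it but outside any run averaged 35.2% in XX and 57.8% in XO, so in XX this run was below its surroundings and in XO it was above them.

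The 3 next intergenic falls were of another kind, since each had a centre found more than once in the genome. The run near Gm24132 (chr8:96905706-96905855), 249577 bp from that start, had 31.8% in XX and 78.5% in XO. It was 100% soft-masked, and its central 40 bases had 14 exact copies. The run near Gm8391 (chr1:50159886-50160062) had 33.8% and 79.6%, with 84.8% of its bases soft-masked and 5 copies of its centre. The run near Gm47998 (chr12:92885752-92885909) had 9.98% and 55.4% with 2 copies and 15.1% soft-masked. How reads of such copies were placed is not given in the sources used here, and whether these levels mix several copies was not tested.

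Inside genes the largest fall lay in a coding exon of Zfp11, which encodes a zinc finger protein. This run (chr5:129657484-129657795) averaged 49.1% over 22 cytosines in XX and 87.0% in XO, a difference of -37.9 points. The cytosines were lower in XX at 21 of 22 positions, and its flanks were high too, at 54.5% in XX and 80.5% in XO. Its ratio of observed to expected CpGs was 0.596, below the usual limit of 0.6 for an island.

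The next intragenic falls began from middling XO levels. An intronic run of Pxk, a PX-domain protein with a kinase-like domain (chr14:8125293-8125480), had 14.2% in XX and 50.1% in XO. A coding-exon run of Polr2f, a subunit shared by the nuclear RNA polymerases (chr15:79144509-79144717), had 16.2% and 51.1%. The fourth, in an exon of the noncoding gene 1700086O06Rik on chromosome 18, had 10.2% and 45.0%. For each of the 3 runs both strands fell by more than 25 points.

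The only orphan run with a rise of at least 20 points lay between genes, 5424 bp from the start of Gm27458 and 31148 bp from that of Hnrnpu, which encodes a nuclear ribonucleoprotein (chr1:178368945-178369127). It averaged 52.7% in XX and 16.1% in XO, a rise of 36.7 points, and 19 of 20 cytosines were higher in XX. The rise was uneven between strands, at 15.3 points on the forward and 48.2 on the reverse strand. Its forward cytosines all lay before the run's centre and its reverse cytosines after it, so strand and position could not be told apart. Its 20 cytosines took just 4 different values in XO and 6 in XX, so its cytosines were not independent readings. The cytosines around it were at 1.33% in XX and 2.94% in XO, so both libraries were higher inside this run than outside it.

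Other rises were smaller and were mostly listed at the cytosines of a single strand. The strands did not always cover the same positions, so a strand's rise may be that of a part of the run. In a coding exon of Srcin1, a Src-inhibiting adaptor of neurons, the run (chr11:97534986-97535097) had 20.8% in XX and 5.19% in XO. The rise was 22.1 points on the reverse strand and 0.556 on the forward strand. The forward cytosines all lay at least 15 bp after the run's centre, and from 20 bp on the reverse ones were at 0% in XX. Cytosines around the run averaged 45.7% in XX and 18.1% in XO, so its surroundings were higher in XX as well. A coding-exon run of Cilp2, a cartilage matrix protein (chr8:69882579-69882771), had 21.6% and 6.31%, with 25.9 points forward and 0.37 reverse, and lay 654 bp from a RefSeq start. An intronic run of F630040K05Rik (chr17:45736615-45736739) was listed at 0% at every cytosine in XO and averaged 13.1% in XX, 20.1% forward and 1.23% reverse. The intronic Gm35040 run (chr7:79543851-79543943) was also at 0% in XO, with 12.7% in XX. In this last run the rise was 16.9 points on the forward strand and 7.73 on the reverse strand.

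Between genes, the rise near Gm9509 (chr15:37135594-37135814), from 1.99% in XO to 18.3% in XX, was seen on both strands, at 11.8 and 21.8 points. This run overlaps a transcript start of the RefSeq annotation, and is orphan only by GENCODE. The rises near Mrto4-ps2 (22.7% in XX and 9.83% in XO) and near Tnrc18 (30.98% and 18.4%) were 2.31 and 1.25 points on the forward strand against 25.9 and 28.4 on the reverse strand. Both also lay within 2 kb of a RefSeq start, at 119 and 1286 bp, and the centre of the former had 4 copies.

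**Figure D2:**
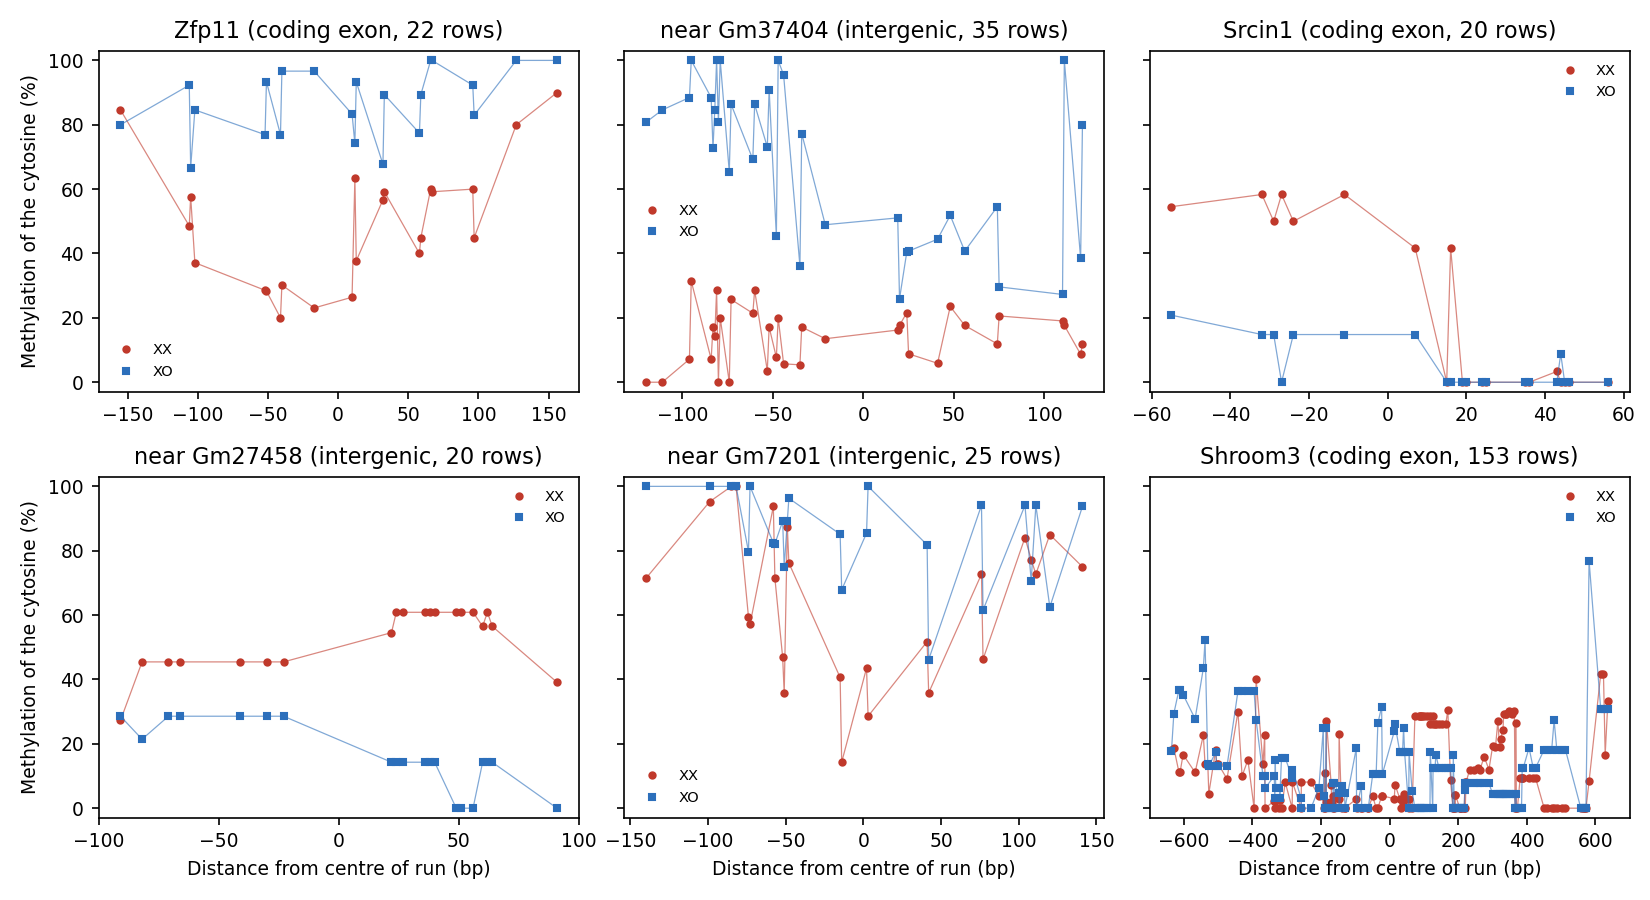
Percent methylation of each listed cytosine against its distance from the centre of the run (bp) in 6 orphan runs, with XX as red circles and XO as blue squares (1 library each). XX lies below XO at 21 of 22 cytosines of Zfp11 and 35 of 35 near Gm37404, above it at 19 of 20 near Gm27458, and on both sides of it over the 153 cytosines of Shroom3.

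The strands gave a pair of readings of each run within a library, from the same cells and so not replicates. They did not always cover the same positions of a run. In the 1437 runs with at least 5 cytosines on each strand, the median gap between the strands was 3.97 points in XX and 4.76 points in XO. The gap between the strands' differences had a median of 4.98 points, larger than the median difference between karyotypes itself. The strands had the same sign in 860 of these runs. Of the 121 runs with a fall of at least 20 points, which were chosen on the mean over both strands, 119 were lower on both strands and 83 fell by at least 20 points on each.

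To read the difference by level on other cytosines than those that set the level, runs were put in classes by the XO level of their forward-strand cytosines. Both libraries were then read on the reverse strand. Since both strands came from the same XO library, anything particular to that library and shared by the strands stayed in the classes. In the 774 runs under 10% the medians were 3.93% in XX and 5.12% in XO, and in the 437 runs of 10% to 30% they were 7.99% and 11.7%. The 173 runs of 30% to 60% had 17.5% and 39.7%, and XX was lower in 155 of them. In the 53 runs of 60% and over the medians were 42.0% and 73.2%, with XX lower in 53 of 53. As a ratio of means, XX had 0.797, 0.704, 0.525 and 0.599 of the XO level in the 4 classes. In these classes, set in the XO library, XX was proportionally lowest in the 2 more methylated ones. With the strands exchanged, the ratios were 0.801, 0.693, 0.568 and 0.620.

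**Figure D3:**
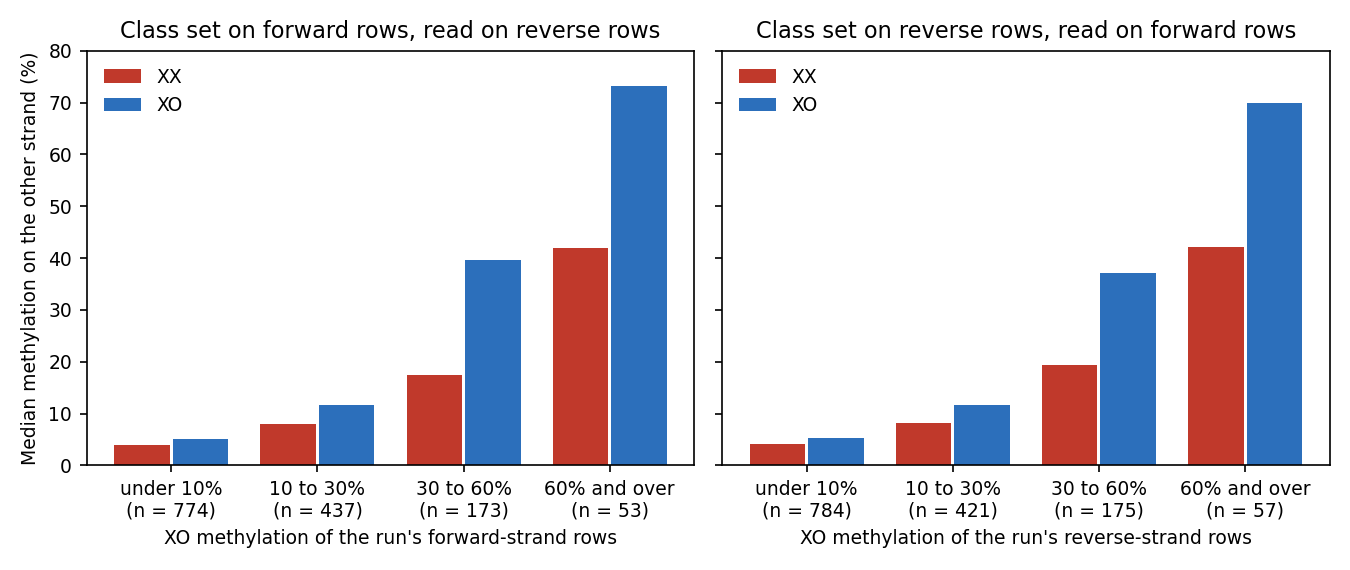
Median methylation (%) of orphan runs in XX (red) and XO (blue) on the strand that was not used to set the class, by class of XO methylation on the forward strand (left) or the reverse strand (right). The bars differ little under 10%, at 3.93% and 5.12% on the left, and most at 60% and over, at 42.0% and 73.2%.

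Repeat-rich runs were the more methylated ones in both libraries. Soft-masked bases are those the reference marks as repeats, without the repeat's type being used here. The 80 runs that were at least 50% soft-masked had medians of 26.4% in XX and 53.4% in XO, and 42 of them (52.5%) fell by at least 20 points. In the 987 runs with no soft-masked base the medians were 6.83% and 9.09%, with 62 such falls (6.28%). Intergenic runs made up 68 of the 80 repeat-rich runs, and near starts just 8 of 14751 runs were as rich in repeats. A run's central 40 bases occurred more than once in the genome in 47 orphan runs, whose medians were 23.2% and 50.1%.

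The methylated runs within and between genes had different sequence makeup. Of the 47 intergenic runs with at least 50% methylation in XO, 35 were at least 50% soft-masked, and their median ratio of observed to expected CpGs was 1.02. Of the 46 intragenic ones, 8 were repeat-rich and 31 were in coding exons, and the ratio was 0.754. Among all orphan runs, 68 of 531 intergenic ones (12.8%) and 12 of 908 intragenic ones (1.32%) were repeat-rich. Coding exons held 606 of all 908 intragenic runs, a share similar to that of the methylated ones. Since the XO level chose both sets, their levels are descriptions, with medians in XX and XO of 41.2% and 73.9% between genes and 31.4% and 56.0% within them. The 13 runs that reached 50% in both libraries were 12 intergenic runs and 1 in an intron of Arhgef12, and 10 of the 13 were repeat-rich.

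The highest levels over both libraries lay between genes, though the median intergenic run was below the median intragenic run in both libraries. The run near Gm7201 (chr13:40808650-40808931) had 64.9% in XX and 85.2% in XO, with 65.7% soft-masked and 6 copies of its centre. The run near Gm43160 (chr3:21160014-21160126) had 59.6% and 86.0%, and the run near Gm25388 (chr2:57680464-57680627) had 54.8% and 85.3%. Both were of single copy at their centre, with 72.8% and 43.6% of their bases soft-masked. Within genes Zfp11 came first, followed by the Arhgef12 intron (chr9:43054853-43055214), with 56.2% in XX and 63.8% in XO, and an intron of AC073947.1 (chr9:39085716-39085967), with 46.3% and 71.2%. Both intronic runs were repeat-rich. Of these 6 runs Arhgef12 differed least between the libraries, by -7.54 points, and on its forward strand the libraries differed by just 0.521 points, with XX higher.

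**Figure D4:**
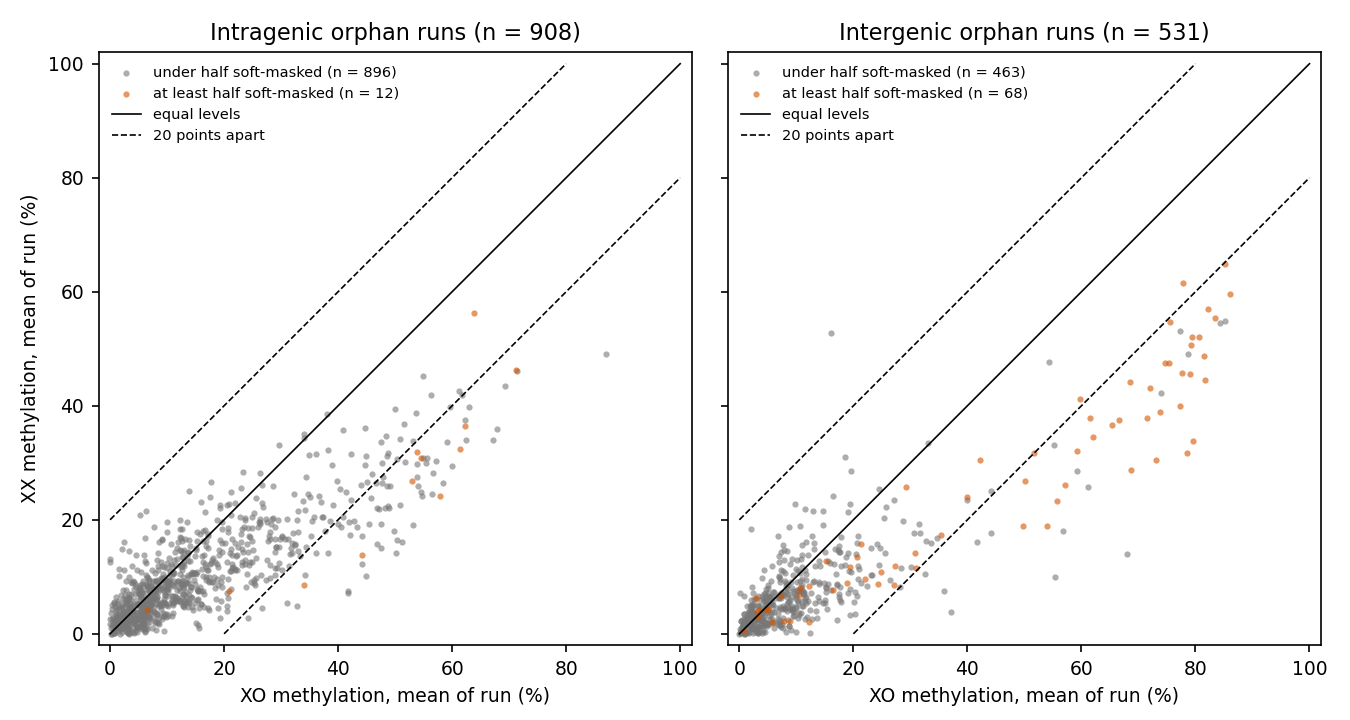
XX against XO methylation (mean of run, %) for each of 908 intragenic and 531 intergenic orphan runs, with runs at least 50% soft-masked in orange, a solid line for equal levels and dashed lines 20 points apart. Most runs cluster below 20%, and all 93 runs with at least 50% in XO lie below the solid line. In the intergenic panel 1 run lies above the upper dashed line. The orange runs fill the upper right of that panel, where 35 of 47 runs with at least 50% in XO are repeat-rich.

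By place within genes, runs in coding exons had the highest medians. The 606 coding-exon runs had medians of 9.03% in XX and 12.6% in XO, and a median difference of -3.66 points. The 236 intronic runs had 6.14% and 6.67%, a median difference of -1.50 points. At least 50% in XO was reached by 31 coding-exon runs (5.12%) and 15 intronic runs (6.36%). In the 34 runs in untranslated regions the medians were alike, at 7.66% and 7.65%, and in the 32 in noncoding exons they were 6.47% and 8.95%. Falls of at least 20 points numbered 49 in coding exons (8.09%), 21 in introns (8.90%) and 1 in each of the smaller sets. Between genes there were 49 (9.23%), of which 33 were in repeat-rich runs.

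Runs farther from a start had larger differences. The median difference was -1.71 points at 2 to 5 kb (564 runs), -2.40 at 5 to 10 kb (346 runs), -3.11 at 10 to 50 kb (452 runs) and -5.69 beyond 50 kb (77 runs). The share with a fall of at least 20 points went from 4.79% of runs in the nearest class to 33.8% in the farthest. Repeat content moved with distance too, from 6 repeat-rich runs of 564 to 26 of 77, and its part in the pattern was not tested. Runs at the edge of the rule were alike on both sides of it, with a median XO level of 8.88% at 2.0 to 2.5 kb from a start and 9.34% at 1.5 to 2.0 kb.

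Runs with more listed cytosines were lower and differed less. The 815 runs of 20 to 29 cytosines had medians of 9.41% in XX and 13.6% in XO and held 110 of the 121 falls of at least 20 points. The 479 runs of 30 to 59 cytosines had 5.77% and 7.16%, with 11 such falls. Runs of 60 or more, 145 in all, had 5.06% and 6.16%, with 0 such falls. Near starts the 4340 runs of 20 to 29 cytosines had medians of 5.77% and 7.03%, with falls of at least 20 points in 1.66%, against 13.5% of the orphan runs of that size. Even without the repeat-rich runs, 9.66% of the orphan runs of that size had such a fall. Just below the limit, the 565 runs of 17 to 19 cytosines over 2 kb from a start had 11.2% and 19.5%, and the 359 orphan runs of 20 to 22 had 11.9% and 16.4%.

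**Figure D5:**
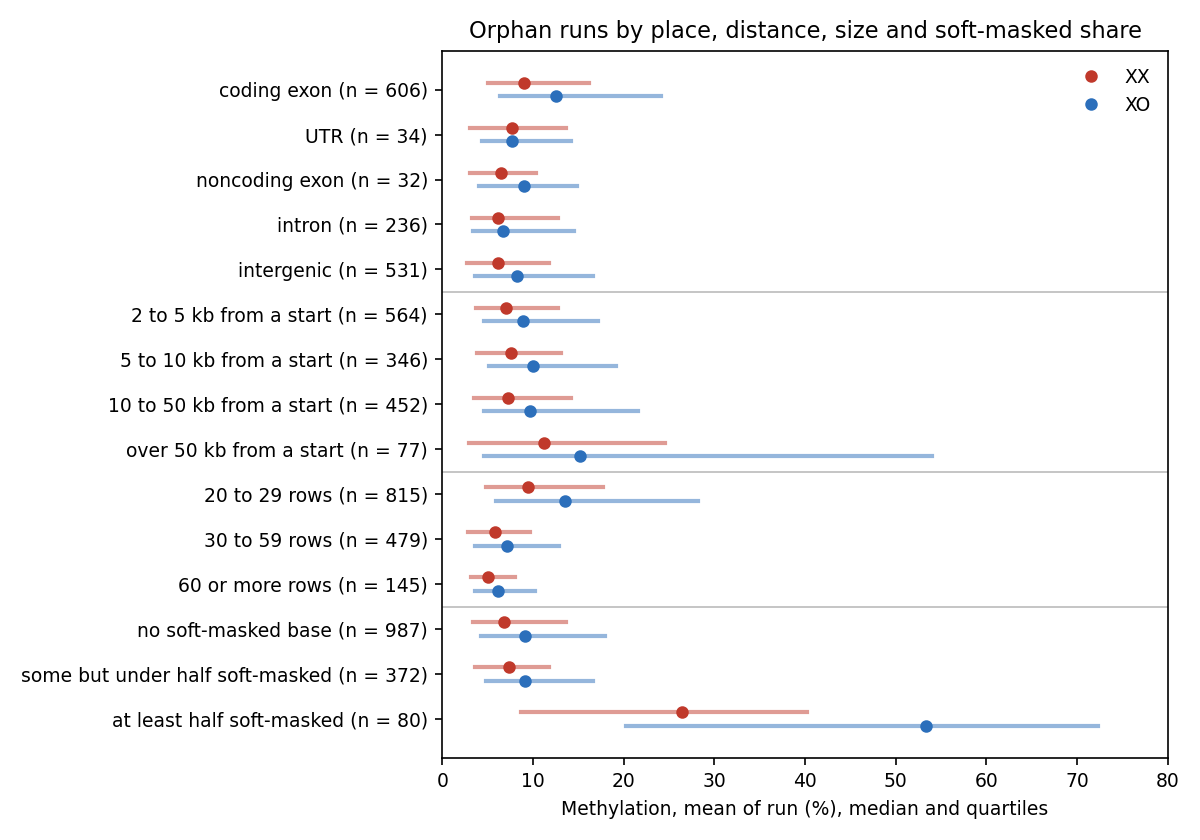
Median (point) and lower to upper quartile (line) of run methylation (%) in XX (red) and XO (blue) for orphan runs grouped by place, distance from a start, number of listed cytosines (rows) and soft-masked share. The groups overlap widely except for the 80 runs at least 50% soft-masked, at 26.4% and 53.4%, and the upper quartile of runs over 50 kb from a start.

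In sequence, orphan runs resembled weaker islands. Their median GC content was 67.4% and their ratio of observed to expected CpGs 0.833, against 71.04% and 0.905 near starts. Of orphan runs 91.9% had both a GC share of 50% or more and a CpG ratio over 0.6, as did 98.4% of near-start runs. These are the usual limits of composition for an island, and no limit of length was applied. Orphan runs were also shorter in number of cytosines, with a median of 27 against 41, and spanned a median of 235 bp. The 114 runs with a ratio of 0.6 or under had 13.4% methylation in XX and 21.1% in XO, and the 818 with a ratio above 0.8 had 5.99% and 7.61%. CCGG, the site of the enzyme commonly used in RRBS, was in the central 200 bases of every orphan and near-start run. Cytosines of orphan runs within CCGG had a mean XX minus XO difference of -4.63 points, against -3.75 for the rest. TGCCGC on either strand, the letters bound by the imprint-protecting factor ZFP57 when methylated, was found in 20.3% of orphan and 23.7% of near-start windows. Runs with it had medians of 6.46% and 8.43%, close to those without it, 7.56% and 9.92%.

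Most orphan runs lay in a dip of methylation, and so did most near-start runs. In 979 runs at least 5 listed cytosines lay within 2 kb but in no run, with medians of 18.1% in XX and 24.7% in XO. These runs themselves had 6.94% and 8.88%, below their flanks in 794 cases in XX and 808 in XO. Near starts the share was similar, with 8496 of 10683 runs below their flanks in XX and 8622 in XO. The flanks left out the cytosines of every run, so low neighbouring runs could not lower them. The flanks of the orphan runs had a median XX minus XO difference of -6.11 points, larger than that of the runs. Runs that fell by at least 20 points had flanks with medians of 31.6% in XX and 52.6% in XO (53 runs), so the surroundings of these runs were methylated and lower in XX as well.

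The count of orphan runs depended on the annotation. A RefSeq transcript start lay within 2 kb of 256 runs (17.8%), 43 of them a curated RefSeq transcript. These 256 runs were lower, with medians of 5.38% in XX and 6.50% in XO, and 5 fell by at least 20 points (1.95%). The other 1183 runs had 7.93% and 10.4%, with 116 such falls (9.81%).

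The longest orphan run, 1274 bp, was in a coding exon of Shroom3, an actin-binding protein needed for neural tube closure (chr5:92941540-92942813). It had 10.6% in XX and 11.1% in XO over 153 cytosines, with levels in both libraries varying from cytosine to cytosine. A coding-exon run of Ebf3, a transcription factor of neural and mesodermal development (chr7:137309132-137310099), spanned 968 bp with 8.21% in XX and 6.65% in XO. Between genes, the run near Gm12974 (chr4:133813184-133814020) spanned 837 bp with 3.79% and 5.69%. The run near Igip on chromosome 18 spanned 712 bp with 1.89% and 4.63%. The pair between genes lay 1125 and 1551 bp from a RefSeq start. None of these 4 runs differed by more than 2.75 points between the libraries, and 3 of the 4 were lower in XX.

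Many orphan runs lay in or near genes of developmental transcription factors. A run was assigned to the genes it overlapped, or otherwise to the gene with the nearest start. Of 304 listed transcription factor genes 71 had an orphan run, with 128 runs in all, which made 8.90% of orphan runs against 3.90% of near-start runs. They were low in both libraries, with medians of 5.82% in XX and 6.31% in XO, and 74 of them were under 10% in both. The median difference was -0.919 points, and 3 (2.34%) fell by at least 20 points, against 8.41% of all orphan runs and 1.32% of all autosomal runs. These 3, named here after their values were seen, were in a coding exon of the neuronal factor Neurod2 (7.13% in XX and 41.7% in XO), 20121 bp from the start of the neural crest factor Pax3 (3.78% and 37.1%), and in an intron of Prdm16, a factor of brown fat development (19.2% and 45.5%). The Pax3 fall rested on the forward strand, with 4.72% in XX and 46.4% in XO over 20 cytosines, while the 5 reverse-strand cytosines were listed at 0% in both libraries. The neighbouring orphan runs of the same locus had 1.77% and 3.797% in XO.

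Several of these genes carried more than 1 orphan run. Foxo6, a forkhead factor of the brain, had 5 runs between 0.660% and 11.8% in XX and between 3.61% and 8.93% in XO. Prdm13, a neural regulator, had 3 adjacent runs in coding exons with XO levels between 1.59% and 3.603%. The 4 runs of Lhx5, a LIM homeobox factor, spanned 1.69% to 23.8% in XX and 2.77% to 25.6% in XO.

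Of the other gene lists, signalling genes had 25 orphan runs of 20 genes, with medians of 5.98% in XX and 7.61% in XO. Falls of at least 20 points were seen in 2 of the 25 (8%), near the 8.41% of all orphan runs, in coding exons of the Wnt receptor Fzd6 (34.0% and 62.4%) and of the Wnt ligand Wnt2b (27.4% and 53.9%), also named after their values were seen. Zinc finger genes of the Zfp family had 48 runs of 40 genes, 40 of them intragenic, with medians of 8.16% and 11.1%. Of these, 2 (4.17%) fell by at least 20 points, Zfp11 and Zfp775 (10.3% in XX and 34.2% in XO), again against 8.41% of all orphan runs. Imprinted genes had 3 runs (near Dlk1 and in H13 and Gnas), none over 10% in either library, and clustered protocadherins had 0. Pluripotency and DNA methylation genes had 2, in Esrrb (0.33% and 4.79%) and Zfp42 (7.34% and 13.4%), and germ cell genes had 1, near Piwil1 (4.92% and 11.2%).

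Runs are not all independent of each other, since neighbours share a locus. Joining runs within 2 kb left 1252 loci, of which 153 held several runs, 340 runs in all. At most 4 runs shared a locus, for instance at Prr7, a synaptic membrane protein, and Plec, the cytoskeletal linker plectin. The Plec runs differed among themselves, from 6.09% to 26.0% in XX and from 12.9% to 43.9% in XO. Within loci of several runs the XO levels spanned a median of 6.11 points, and over loci the median difference was -2.64 points.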

How the data were processed

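The authors deposited 1 table with the percent methylation of each listed cytosine in the XX and XO RRBS libraries, 1782730 positions with 0 missing values. The submitters' processing notes name bcl2fastq, Bismark and mm10, without versions. Their coverage minimum is not given in the sources used here. The table has no read counts, so depth is unknown and no interval from depth was computed. Strand was read from the reference base, and 51 positions outside CpGs were kept. Genes and starts came from GENCODE M21 (141730 transcript starts) on GRCm38.p6. Run values are means over cytosines. Place was taken in the order coding exon, untranslated region, noncoding exon, intron. Copies are exact matches of the central 40 bases on either strand.

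Named runs had at least 5 cytosines on each strand. Separately for intragenic and intergenic runs, they were the 4 largest falls and rises with both strands moving that way, the 3 highest mean levels and the 2 longest. Runs within 2 kb counted once. Imprinted genes were to be added at 20 points, and none reached it. Members and lists were chosen with earlier results of these data known. Code was tested on simulated data. Alternatives changed the run, distance and repeat rules, the summary and the threshold. Values were computed in Python 3.11.15 (pandas 2.3.3, numpy 2.4.6, numba 0.67.0) and drawn with matplotlib 3.10.9.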

Additional observations from a re-analysis of the deposited data

How the results depend on the processing

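With 1 library per karyotype, the alternatives test the rules and not the replication, and no library could be left out. No paired analysis was possible because each karyotype had 1 library. An alternative was said to move a median when it left the 95% rank interval of the median over runs, and a count when it changed by over 1.5 times. Of 71 values, 30 stayed, 41 moved and 0 reversed. In the main setting the median difference was -2.43 points over all orphan runs (interval -2.80 to -2.08). It was -2.68 for intragenic runs (-3.44 to -2.18) and -2.11 for intergenic runs (-2.70 to -1.28). In the order all, intragenic and intergenic orphan runs, the median difference was -10.5, -10.6 and -10.4 points with at least 10 cytosines per run, -0.792, -0.817 and -0.468 with at least 40, -1.04, -1.27 and -0.731 with gaps of at most 25 bp, and -3.80, -4.35 and -3.13 with gaps of at most 100 bp. It was -1.31, -1.86 and 0 with the median of a run's cytosines, -3.47, -3.72 and -3.12 without cytosines at 0% or 100% in both libraries, and -5.15, -5.18 and -5.09 as a mean over runs. For all and intragenic runs it was -2.95 and -3.71 over 5 kb from a start, -2.01 and -2.12 over 2 kb from protein-coding starts only, and -1.61 and -1.69 with strands merged. For intergenic runs it was -1.21 without repeat-rich runs. Counts were compared as such, though the number of runs differed between settings, with 121 falls of at least 20 points in 1439 runs in the main one. Falls numbered 2250 of 7649 runs with at least 10 cytosines per run and 2 of 367 with at least 40. They were 30 of 851 and 237 of 1903 with gaps of 25 and 100 bp, 23 of 685 with strands merged and 79 of 1359 without repeat-rich runs. There were 294 falls at a threshold of 10 points and 43 at 30. Rises numbered 22 and 0 with at least 10 and at least 40 cytosines, 6 with the median of a run's cytosines, 4 without cytosines at 0% or 100%, and 17 at a threshold of 10 points. The limit on cytosines per run gave the widest range. Chosen after seeing the data, a distance of over 2 kb from RefSeq starts too left 116 falls of 1183 runs. Requiring both strands to move the same way, also chosen then, left 119 of 860.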

Other observations

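Chromosome X held 19 orphan runs by the same rule. The median run had 3.76% methylation in XX and 5.34% in XO, with XX lower in 12 runs, and 13 runs were under 10% in both libraries. Falls of at least 20 points were seen in 4 of the 19 runs, against 8.41% of autosomal orphan runs and 1.32% of all autosomal runs. Of these 4 runs, 2 were at least 50% soft-masked. The other two were neighbouring coding-exon runs of Asmt, which encodes the last enzyme of melatonin synthesis and lies in the pseudoautosomal region. One of them (chrX:170677002-170677152) had 6.87% in XX and 65.2% in XO, and the other (chrX:170677782-170677953) had 4.91% and 56.2%. The differences were -58.4 and -51.3 points, and both strands were lower in XX in each run.

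Elsewhere on the X the levels were low. Bcor, a transcriptional corepressor, had 4 intronic runs with 1.47% to 5.47% in XX and 1.51% to 3.28% in XO. The repeat-rich runs, near Gm4732 and Klhl4, had 44.1% and 46.9% in XX and 77.3% and 72.1% in XO, and the centre of the latter had 54 copies.

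Among protein-coding hosts 517 of 652 had a single orphan run, and 11 had at least 4. Gm20388 had the most, 11 runs, with differences from -33.8 to 2.72 points. Cdh22, a cadherin of the brain, had 6 runs with XO levels from 2.53% to 24.9%. Lmtk3, a kinase, had 5 runs, each of them lower in XX, with differences from -11.4 to -0.999 points. These hosts were named for their number of runs after the values were seen.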
